A study of Mus musculus with 6 samples.

Results

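The transcripts described here are those of the mouse mitochondrial genome, measured by RNA sequencing of bone marrow. They were found by gene name among the 47561 entries of each deposited table: 13 mRNAs named ND1 to ND6, ND4L, COX1 to COX3, ATP6, ATP8 or CYTB, and the ribosomal RNAs mt-Rnr1 and mt-Rnr2, which makes 15 members. The tables list the 22 mitochondrial tRNA genes under names such as TrnF, outside that naming rule, and they are described separately after the members. The study had 6 libraries of bone marrow cells, 3 from negative control mice and 3 from mice given 4 weeks of CUMS (chronic unpredictable mild stress), in which mild stressors change from day to day and which the labels call depression. Strain, sex, age and the timing of collection are not given in the sources used here, and the labels do not say whether each library is a separate animal, so the spread between libraries may be technical.

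The mitochondrial genome is a small circle that codes for core membrane subunits of the respiratory chain and the ATP synthase, and for the rRNAs and tRNAs that translate them inside the organelle. Both strands are copied by the polymerase POLRMT into long RNAs, which are cut at the tRNAs that lie between most mRNAs and rRNAs. All other respiratory chain subunits are made from nuclear genes and imported. In bone marrow, red cell precursors build many mitochondria for haem synthesis and clear them as they mature, whereas mature neutrophils hold few.

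Values are FPKM, the fragments of a gene scaled by its length and by the size of the library, and levels are compared between genes only on that per-length scale. Of all summed FPKM, haemoglobin made up 28.8% to 29.2% in the control libraries and 31.7% to 35.2% in the CUMS libraries, and neutrophil and erythroid markers were high in each, as the tissue label implies. The file headers carry a code whose meaning is not stated: replicate 1 has code 1 in both groups, and the remaining 4 libraries have code 2. The number of fragments is not known. Fewer cells of a type and less RNA per cell cannot be told apart in bulk marrow, and this holds for every difference given here.

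All 15 mitochondrial members had lower mean values in CUMS than in control marrow. Summed over the 13 mRNAs, the level was 23486, 25028 and 23553 FPKM in control replicates 1, 2 and 3, and 15373, 18785 and 18140 FPKM in CUMS replicates 1, 2 and 3. The CUMS mean was thus 72.6% of the control mean, with every CUMS library below every control library. By complex, the summed CUMS level was 73.2% of control for complex I, 68.5% for complex III, 71.1% for complex IV and 78.2% for the ATP synthase, and it was 61.1% for the rRNAs. Log2 changes of single mRNAs (CUMS minus control on log2(FPKM + 1)) ran from −0.57 to −0.25 with a median of −0.46, while the median of all 12302 tested genes was −0.0017. For 12 of the 15 members the 3 CUMS values lay below the 3 control values, a pattern held by 12.1% of all tested genes.

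Only mt-Rnr2 passed the test with group as the single term (limma, Benjamini-Hochberg adjusted p under 0.05), so 1 of 15 members was called lower, where 0.455% of all tested genes were. None of the 13 mRNAs passed it, at adjusted p between 0.0824 and 0.637, although 10 had an unadjusted p under 0.05 (8.41% of all genes had one with a lower value in CUMS). With the replicate number as a block, 10 mRNAs and both rRNAs fell (4.31% of all genes did). The labels do not give this pairing, which was chosen from these same data, and for replicate 1 it cannot be told apart from the header code. With the header code as a term, 12 mRNAs and both rRNAs fell (7.31% of all genes). In the 4 libraries of code 2 alone, 11 mRNAs and both rRNAs fell (8.84% of all genes). In none of these fits did a member rise.

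**Figure D1:**
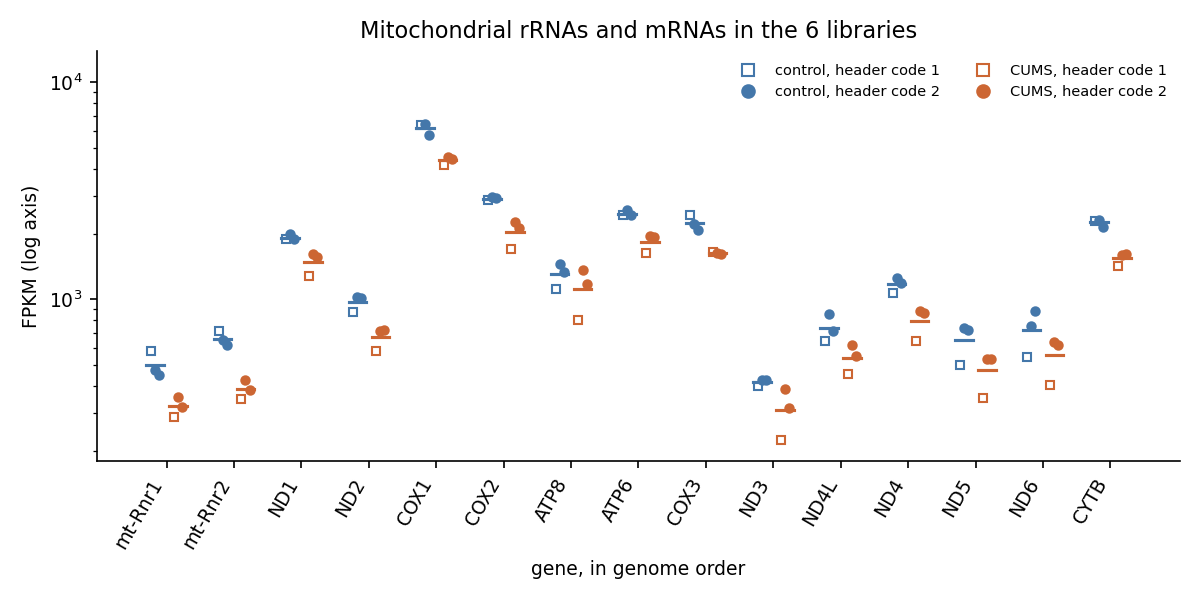
FPKM of the 15 members on a log axis, in genome order, for each of the 6 libraries; lines are group means of 3, open squares are libraries of header code 1 and filled circles those of code 2. CUMS values lie below all control values for 12 genes, and overlap for ATP8, ND5 and ND6.

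The ribosomal RNAs form the core of the mitochondrial ribosome and lie first in the transcribed unit, each flanked by tRNA genes. The larger, mt-Rnr2 (the 16S rRNA, chrM:1094-2675, 1582 bases, plus strand), stood at 712, 647 and 618 FPKM in control replicates 1 to 3 and at 348, 425 and 384 FPKM in the CUMS replicates. It fell 1.71-fold in the means (659 ± 47.7 to 386 ± 38.6 FPKM, SD, n = 3 each; log2 change −0.77, SE 0.117, limma adjusted p = 0.0283), with a wide gap between the groups. This call was lost without control replicate 2 (adjusted p = 0.113), control replicate 3 (0.127), CUMS replicate 1 (0.0645), CUMS replicate 2 (0.107) or CUMS replicate 3 (0.1705), and it held without control replicate 1 (0.0322). Its log2 change stayed between −0.85 and −0.70 in those fits.

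The smaller, mt-Rnr1 (the 12S rRNA, chrM:70-1024, 955 bases), was at 578, 470 and 447 FPKM in controls and at 288, 355 and 321 FPKM in CUMS. Its groups did not overlap, and its log2 change was −0.63 (SE 0.135, adjusted p = 0.0786, with the replicate block 0.0297). Both rRNAs were low beside the mRNAs per length, with summed rRNA at 0.0549, 0.0447 and 0.0453 of the summed mRNA level in controls and 0.0414, 0.0415 and 0.0388 in CUMS. This rRNA to mRNA ratio was lower in each CUMS library than in any control, by −0.24 on the log2 scale, and by −0.15 without control replicate 1. The ratio of mt-Rnr2 to mt-Rnr1 was 1.23, 1.38 and 1.38 in controls and 1.21, 1.20 and 1.20 in CUMS. All CUMS values of that ratio lay below the controls, and its log2 difference was −0.03 in the pair of code 1 and −0.20 in code 2. How RNA was selected for the libraries is not described here, and its part in the rRNA values and in both ratios was not tested.

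Complex I (NADH dehydrogenase) takes 7 of its membrane subunits from this genome. ND1, which helps form the quinone-binding channel, had 1893, 1996 and 1895 FPKM in controls and 1286, 1622 and 1574 in CUMS. ND2, a proton-pumping subunit, had 872, 1028 and 1016 FPKM in controls and 579, 715 and 720 in CUMS. ND4, another pumping subunit, had 1072, 1253 and 1192 FPKM in controls and 646, 881 and 866 in CUMS. All of them were without overlap between the groups, and CUMS replicate 1 was the lowest library for each. ND4 had the most negative log2 change of the 13 mRNAs at −0.57 (SE 0.152, adjusted p = 0.138, with the replicate block 0.0145). ND2 had −0.54 (SE 0.134, adjusted p = 0.117, with the block 0.0105) and ND1 −0.37 (SE 0.134, adjusted p = 0.245). For ND1 the adjusted p was 0.0504 with the block and 0.020 with the header code as a term.

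ND4L, a small membrane subunit, was at 645, 854 and 718 FPKM in controls and at 455, 614 and 549 in CUMS. ND3, whose loop closes part of the quinone site, was at 400, 424 and 427 FPKM in controls and at 226, 387 and 316 in CUMS, the lowest level of the 13 mRNAs in both groups. Groups did not overlap for either gene, but CUMS replicate 2 of ND3 came close to the controls. The log2 change was −0.45 for ND4L (SE 0.156, adjusted p = 0.226, with the block 0.0167) and −0.46 for ND3 (SE 0.186, adjusted p = 0.299, with the block 0.0704). ND5, the largest pumping subunit, was at 497, 736 and 724 FPKM in controls and at 351, 533 and 532 in CUMS. Its groups overlapped through control replicate 1, which shares header code 1 with the lowest CUMS library. The log2 change of ND5 was −0.47 (SE 0.217, adjusted p = 0.359), and with the replicate block its adjusted p was 0.0136. Without control replicate 1 its log2 change was −0.65, and without CUMS replicate 1 it was −0.27.

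ND6, a membrane subunit beside ND1, is the only mRNA of the minus strand. It was at 541, 752 and 881 FPKM in controls and at 404, 634 and 618 in CUMS, with overlap between the groups (log2 change −0.39, SE 0.232, adjusted p = 0.479, with the block 0.0339). Relative to the sum of the other 12 mRNAs, ND6 stood at 0.0236, 0.0310 and 0.0389 in controls and at 0.0270, 0.0349 and 0.0353 in CUMS. These ratios overlapped, with a log2 difference of 0.08, which turned to −0.11 without control replicate 1. The ND6 mRNA also differs in base composition: it holds 28.1% G and 6.0% C, whereas the 12 plus-strand mRNAs hold 5.9% to 16.1% G and at least 22.1% C. ND5 and ND6 share 14 bases on opposite strands (chrM:13552-13565), so fragments there could count for either gene unless strand was used, which is not stated.

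Complex III takes only cytochrome b, encoded by CYTB (chrM:14145-15288), from this genome. CYTB was at 2306, 2329 and 2166 FPKM in controls and at 1433, 1602 and 1622 in CUMS, with tight values in each group and no overlap. Its log2 change was −0.55 (SE 0.121, adjusted p = 0.0824, with the replicate block 0.0167), the smallest adjusted p of the 13 mRNAs.

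Complex IV (cytochrome c oxidase) has a catalytic core of 3 mitochondrial subunits. COX1, which carries the oxygen-reducing centre, was at 6386, 6433 and 5743 FPKM in controls and at 4184, 4557 and 4460 in CUMS. COX2, which receives electrons from cytochrome c, was at 2858, 2966 and 2920 FPKM in controls and at 1703, 2272 and 2140 in CUMS. COX3, a core subunit without metal centres, was at 2455, 2225 and 2097 FPKM in controls and at 1662, 1641 and 1621 in CUMS. The groups were separate for all of them. Log2 changes were −0.49 for COX1 (SE 0.143, adjusted p = 0.168, with the block 0.0260), −0.53 for COX2 (SE 0.148, adjusted p = 0.152, with the block 0.0259) and −0.46 for COX3 (SE 0.122, adjusted p = 0.135, with the block 0.0228). COX3 also passed once the libraries were scaled to the same summed FPKM (adjusted p = 0.0279, where 0.819% of all genes were called lower), also when haemoglobin and mitochondrial genes were left out of that sum (0.0431, 0.478% of all genes), and after quantile normalization (0.0225, 0.74% of all genes).

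The ATP synthase takes ATP6, which forms the proton path, and ATP8, a short membrane subunit, from 1 shared transcript. ATP6 was at 2438, 2573 and 2442 FPKM in controls and at 1635, 1958 and 1938 in CUMS, without overlap (log2 change −0.43, SE 0.130, adjusted p = 0.177, with the block 0.0297). ATP8 was at 1122, 1460 and 1331 FPKM in controls and at 808, 1369 and 1183 in CUMS, so that 2 CUMS libraries lay above control replicate 1. Its log2 change of −0.25 (SE 0.209, adjusted p = 0.637) was the smallest of the 13, and it passed no fit of CUMS against control. Without CUMS replicate 1 the change was −0.03. The ratio of ATP8 to ATP6 was 0.460, 0.567 and 0.545 in controls and 0.494, 0.699 and 0.611 in CUMS, with overlap.

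Reading frames of neighbouring subunits overlap here, which bears on how fragments were assigned. The end of ATP8 and the end of ND4L are shown 5′ to 3′ from the GENCODE transcripts of GRCm38, because each runs into the start codon of the next mRNA. Capitals mark the bases shared with ATP6 (43 bases) and with ND4 (7 bases).
ATP8, chrM:7910-7969, plus strand: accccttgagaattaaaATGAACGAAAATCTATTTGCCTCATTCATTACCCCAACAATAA
ND4L, chrM:10144-10173, plus strand: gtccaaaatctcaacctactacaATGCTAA
Each capital run opens with the ATG of the downstream frame and ends with the TAA of the upstream frame. ATP8 is 204 bases long, so that its shared bases are a large part of it, and how fragments over them were counted is not given in the sources used here.

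Several members lack a full stop codon in the DNA. COX3 (784 bases), ND4 (1378 bases) and CYTB (1144 bases) end in a lone T. In mitochondria such a codon is known to be completed by the poly(A) tail. Their last 30 bases are shown beside that of COX1, which ends in a full TAA; capitals mark the stop codon or the part of it that the DNA holds.
COX3, chrM:9361-9390: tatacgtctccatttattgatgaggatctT
ND4, chrM:11515-11544: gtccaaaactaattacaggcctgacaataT
CYTB, chrM:15259-15288: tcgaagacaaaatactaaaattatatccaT
COX1, chrM:6843-6872: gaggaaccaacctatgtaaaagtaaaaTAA
Log2 changes were −0.46 for COX3, −0.57 for ND4 and −0.55 for CYTB. They were −0.54 (ND2) to −0.25 (ATP8) for the mRNAs with a full stop codon in the DNA. ND4 and CYTB lay just below that range. ND1 and ND2 are in that range by their DNA only, because the last 2 bases of each also begin TrnI or TrnW on the same strand. A difference between the classes was not tested.

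The order of levels was nearly the same in both groups. COX1 was highest and ND3 lowest in CUMS as in control, and the highest mRNA exceeded the lowest by 13.4 to 16.0 times in controls and by 11.8 to 18.5 times in CUMS. In controls the order below COX1 was COX2, ATP6, CYTB, COX3, ND1, ATP8, ND4, ND2, ND4L, ND6, ND5 and ND3. Neighbours whose 3 control values overlapped were CYTB and COX3, ATP8 and ND4, ND4L and ND6, and ND6 and ND5; the other neighbours were apart. In CUMS, COX3 stood above CYTB and ND6 above ND4L, both within overlapping values.

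As shares of the summed mRNA level, the 13 mRNAs moved little between the groups. ND1 made up 8.06%, 7.97% and 8.04% of the sum in controls and 8.37%, 8.63% and 8.68% in CUMS. ATP6 made up 10.3% ± 0.053 in controls and 10.6% ± 0.139 in CUMS (SD, n = 3). Only these shares were without overlap between the groups, both higher in CUMS (two-sided exact permutation p = 0.1, the smallest that 3 against 3 allows; adjusted p = 0.65 over 13 shares). The largest share, that of COX1, was 25.8% ± 1.40 in controls and 25.4% ± 1.62 in CUMS, with overlap.

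**Figure D2:**
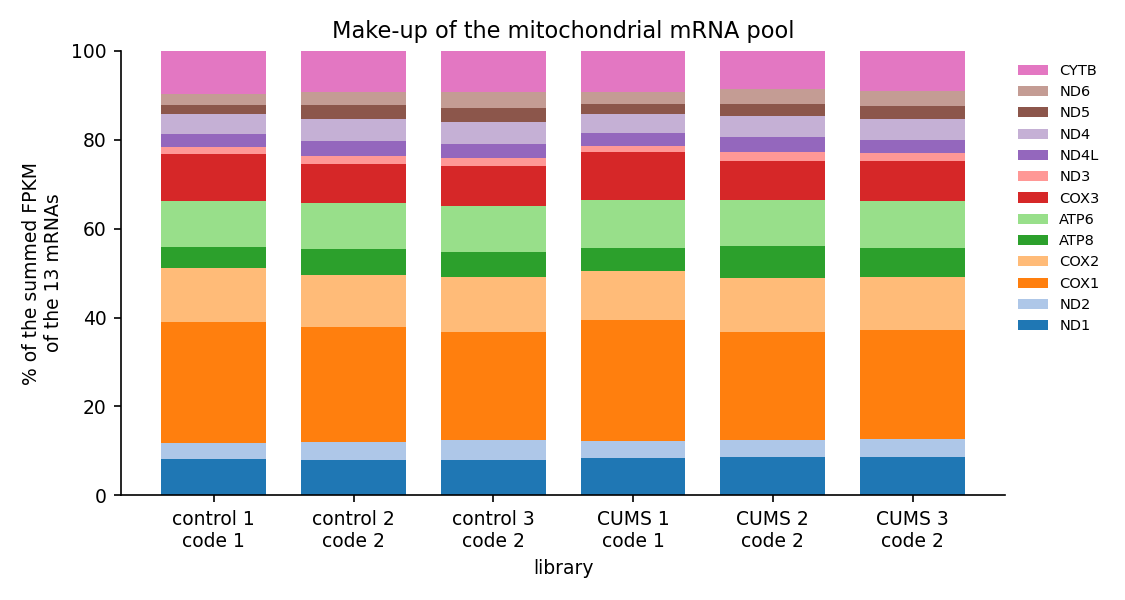
Stacked bars of the share of each mRNA in the summed FPKM of the 13 mRNAs, in percent, 1 bar per library with its header code. The bars look alike between control and CUMS; COX1 is the largest block at 25.8% and 25.4% on average.

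The header code went with the make-up of the pool more than the group did. The shares of ND2, ATP8, ND4L, ND4, ND5 and ND6 were lower in both libraries of code 1 than in any of code 2, and those of COX1, COX3 and CYTB were higher. COX1 stood at 12.9 and 11.9 times ND5 in the libraries of code 1 and at 7.93 to 8.74 times in those of code 2. In a fit with group and code, a comparison chosen after the values were seen, 6 of 13 mRNAs were higher in code 2 (17.7% of all tested genes were, and 30.5% differed in either direction): ND2, ATP8, ND4L, ND4, ND5 and ND6. Log2 differences were 0.58 for ND5 (limma adjusted p = 0.000783) and 0.61 for ND6 (adjusted p = 0.00169), and 0.02 for COX1 (adjusted p = 0.886). The group difference was present within each code: the summed mRNA level differed by −0.61 on the log2 scale in the pair of code 1 and by −0.40 in code 2.

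**Figure D3:**
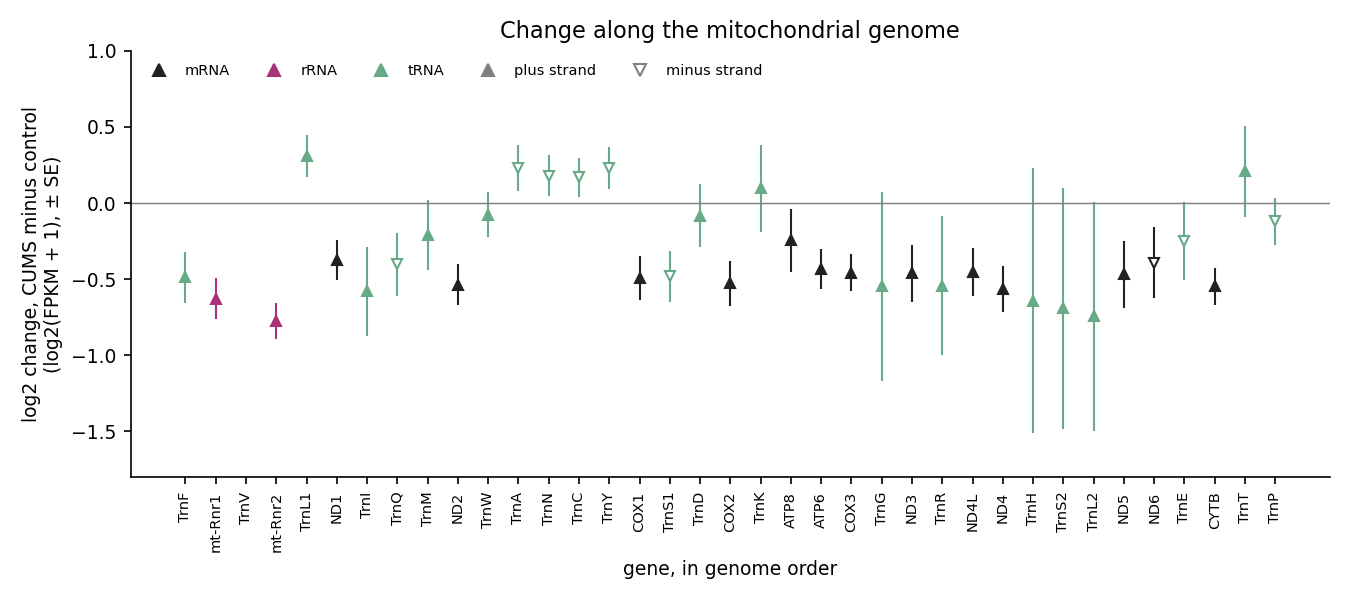
Log2 change from control to CUMS with its standard error for 36 of the 37 mitochondrial genes in genome order (TrnV was too low to test); triangles point up for the plus strand, open triangles point down for the minus strand. The mRNAs and rRNAs all lie below 0, whereas TrnL1, TrnA, TrnN, TrnC, TrnY, TrnK and TrnT lie above it.

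The tRNA genes behaved less uniformly than the members. Of 22, 21 were tested and none passed with group as the only term (1.07% of all genes did). An unadjusted p under 0.05 was found for 2 of 21, TrnF and TrnS1, both lower, as 8.41% of all genes were. TrnF lay near the filter of 1 FPKM, with a mean of 1.35 FPKM in control and 0.697 FPKM in CUMS libraries. The median log2 change was −0.21, with 14 values below 0 and 7 above. With the replicate block 5 of 21 fell (4.31% of all genes did) and none rose: TrnG (adjusted p = 0.0457), TrnR (0.0454), TrnH (0.0231), TrnS2 (0.0360) and TrnL2 (0.0392). At 59 to 75 bases these genes are shorter than the 151-base reads, so their FPKM can hold fragments of longer RNAs that cross them, and that part was not tested.

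The median level of the tRNA genes differed by strand. The 8 genes of the minus strand had a median control level of 101 FPKM, and the 14 genes of the plus strand one of 12.3 FPKM. Single genes went the other way, with control means of 76.4 FPKM for TrnL1 (plus) and 7.15 FPKM for TrnQ (minus). In control replicates 2 and 3, both of code 2, TrnH, TrnS2 and TrnL2 (plus) were at 65.2 to 87.1 FPKM. TrnA (minus) was at 66.2 and 75.7 FPKM there. TrnS1 (serine tRNA, minus strand) was far above the rest at 1346, 1241 and 1436 FPKM in controls and 766, 994 and 1155 in CUMS. It shares its last 3 bases, in capitals, with the stop codon of COX1 on the other strand, and COX1 mRNA of mammals is known to run on through the complement of this gene.
TrnS1, chrM:6870-6938, minus strand: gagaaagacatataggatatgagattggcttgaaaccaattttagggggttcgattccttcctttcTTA
TrnS1 stood at 21.1%, 19.3% and 25.0% of COX1 in controls and at 18.3%, 21.8% and 25.9% in CUMS, and these shares overlapped between the groups.

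Between ND2 and COX1 lies a run of minus-strand tRNA genes, TrnA, TrnN, TrnC and TrnY (alanine, asparagine, cysteine and tyrosine), which did not share the lower values of the mRNAs. They are shown because no mRNA is encoded on their own strand nearby.
TrnA, chrM:5018-5086, minus strand: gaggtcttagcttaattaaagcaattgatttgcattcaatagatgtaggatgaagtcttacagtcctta
TrnN, chrM:5089-5159, minus strand: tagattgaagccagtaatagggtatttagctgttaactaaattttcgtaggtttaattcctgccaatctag
TrnC, chrM:5192-5257, minus strand: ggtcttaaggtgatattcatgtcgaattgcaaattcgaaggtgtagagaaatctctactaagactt
TrnY, chrM:5260-5326, minus strand: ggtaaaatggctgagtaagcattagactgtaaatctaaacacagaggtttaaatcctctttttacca
Their summed level was 399, 379 and 404 FPKM in controls and 368, 518 and 486 in CUMS, which overlap. Relative to the summed mRNAs they stood at 1.70%, 1.51% and 1.72% in controls and at 2.39%, 2.76% and 2.68% in CUMS, so every CUMS library was above every control. Single log2 changes were 0.23, 0.18, 0.17 and 0.23, with adjusted p between 0.479 and 0.593. In the code 2 libraries alone all of them rose (adjusted p = 0.0155, 0.0125, 0.0135 and 0.0113), whereas in the pair of code 1 the CUMS library was lower. TrnL1 (a leucine tRNA between mt-Rnr2 and ND1), with control values of 72.5, 83.1 and 73.8 FPKM and CUMS values of 81.2, 114 and 91.7, was the fifth tRNA gene to rise in code 2 alone (adjusted p = 0.0465), where 8.82% of all genes rose. In the same fit 4 tRNA genes fell, TrnH, TrnS2, TrnL2 and TrnR (adjusted p = 0.00997, 0.0131, 0.0173 and 0.0443), where 8.84% of all genes fell.

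A run of plus-strand tRNA genes between ND4 and ND5, TrnH, TrnS2 and TrnL2 (histidine, serine and leucine), differed most by header code. Other tRNA genes were also higher in code 2. The log2 difference was 1.78 for TrnG (limma adjusted p = 0.000395), 1.28 for TrnR (0.000617), 0.78 for TrnK (0.00169) and 0.62 for TrnE (0.0123). It was 0.72 for TrnT (0.0157), 0.69 for TrnI (0.0194), 0.45 for TrnD (0.0310) and 0.34 for TrnW (0.0182). Of all tested genes 17.7% were higher in code 2.
TrnH, chrM:11546-11612, plus strand: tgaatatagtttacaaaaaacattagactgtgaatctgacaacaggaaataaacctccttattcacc
TrnS2, chrM:11613-11671, plus strand: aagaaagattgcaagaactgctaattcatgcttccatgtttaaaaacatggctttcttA
TrnL2, chrM:11671-11741, plus strand: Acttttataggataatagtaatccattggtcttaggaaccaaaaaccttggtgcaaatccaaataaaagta
The capital marks the 1 base that TrnS2 and TrnL2 share, and the genes follow each other without a gap. TrnH was at 13.4 FPKM in control replicate 1 and 76.2 and 65.2 in control replicates 2 and 3, and at 6.49, 49.8 and 50.0 FPKM in CUMS replicates 1 to 3. Code 2 exceeded code 1 by 2.54 on the log2 scale for TrnH, by 2.29 for TrnS2 and by 2.16 for TrnL2 (limma adjusted p = 4.8e-05, 0.000162 and 0.000297). CUMS was lower than control within each code, and the log2 change of TrnH was −0.64 (SE 0.870, adjusted p = 0.790, with the replicate block 0.0231).

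**Figure D4:**
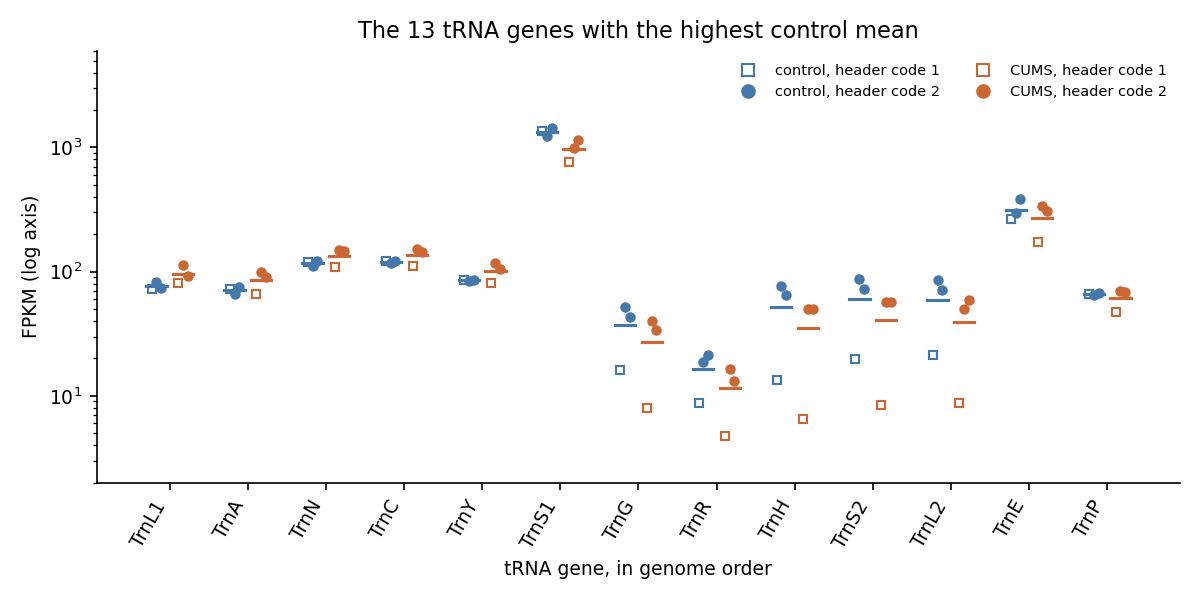
FPKM on a log axis for the 13 tRNA genes with the highest control mean, in genome order, for each library; lines are group means of 3, open squares are libraries of header code 1 and filled circles those of code 2. TrnH, TrnS2 and TrnL2 split most widely by header code, TrnG, TrnR and TrnE also split by it, and TrnS1 lies between 766 and 1436 FPKM.

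Nearly identical copies of part of this genome lie in nuclear DNA, and fragments from such a stretch cannot be assigned with certainty. The GENCODE transcripts (release M21, GRCm38) hold copies on chromosome 1, between 24611535 and 24616197, of COX2, ATP6, COX3 and ND4L at 100% identity over nearly their whole length, of ND3 at 99.7%, of 876 bases of ND4 at 100% and of 483 bases of COX1 at 99.8%. Copies elsewhere were less alike, at most 97.6% identical. None of these copies is an entry of the deposited tables. The 7 mRNAs with a copy there had a median log2 change of −0.46, and the 6 for which the search found no match of 60 bases or more there (ND1, ND2, ATP8, ND5, ND6 and CYTB) had one of −0.43. Of these 6, ATP8 shares its last 43 bases with ATP6, nearly all of which has a copy there. Only annotated transcripts were searched, which leaves out the bases between the copies of ATP6 and COX2 there (24614651 to 24614885). ATP8 lies between COX2 and ATP6 in the mitochondrial genome, so it cannot be taken as free of a copy on chromosome 1.

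The nuclear subunits of the same complexes gave no call. All 75 listed subunits of complexes I to IV and the ATP synthase were tested, and none passed with group as the only term (1.07% of all genes did), with the replicate block (7.8%) or with the header code as a term (13.4%). None had an unadjusted p under 0.05 either. Their median log2 change was −0.0056, with 37 values above 0 and 38 below. In the 4 libraries of code 2 alone 8 of the 75 rose and none fell (8.82% and 8.84% of all genes). Changes ran from −0.28 for Cox6a1, a complex IV subunit, to 0.29 for Ndufa12, an accessory subunit of complex I, and 73 of the 75 lay above −0.25, the change of ATP8.

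For the complex I genes, Ndufs1, which holds iron-sulfur clusters, had a mean of 23.8 ± 2.21 FPKM in control and 27.5 ± 0.324 FPKM in CUMS libraries (here and for the nuclear genes that follow ± is the SD, n = 3; adjusted p = 0.368). Ndufs6 was at 57.1 ± 8.86 and 46.9 ± 5.56 FPKM (adjusted p = 0.394). Sdha, the flavoprotein of complex II, which has no mitochondrially encoded subunit, was at 51.3 ± 1.11 and 54.8 ± 2.51 FPKM (adjusted p = 0.656). Uqcrfs1, the Rieske protein of complex III, was at 59.9 ± 6.42 and 66.9 ± 3.09 FPKM (adjusted p = 0.517). Cox6a1 of complex IV was at 374 ± 49.9 and 306 ± 29.6 FPKM (adjusted p = 0.359), and Atp5e of the ATP synthase at 212 ± 33.02 and 184 ± 15.02 FPKM (adjusted p = 0.549). None of these genes passed the test. The groups overlapped for all of them but Ndufs1, whose CUMS values lay above the control values. The summed mitochondrial mRNAs stood at 2.98, 4.198 and 3.60 times the summed nuclear subunits in controls and at 2.20, 2.85 and 2.81 times in CUMS, so the groups did not overlap. The log2 difference of that ratio was −0.43 in the pair of code 1 and −0.46 in code 2.

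**Figure D5:**
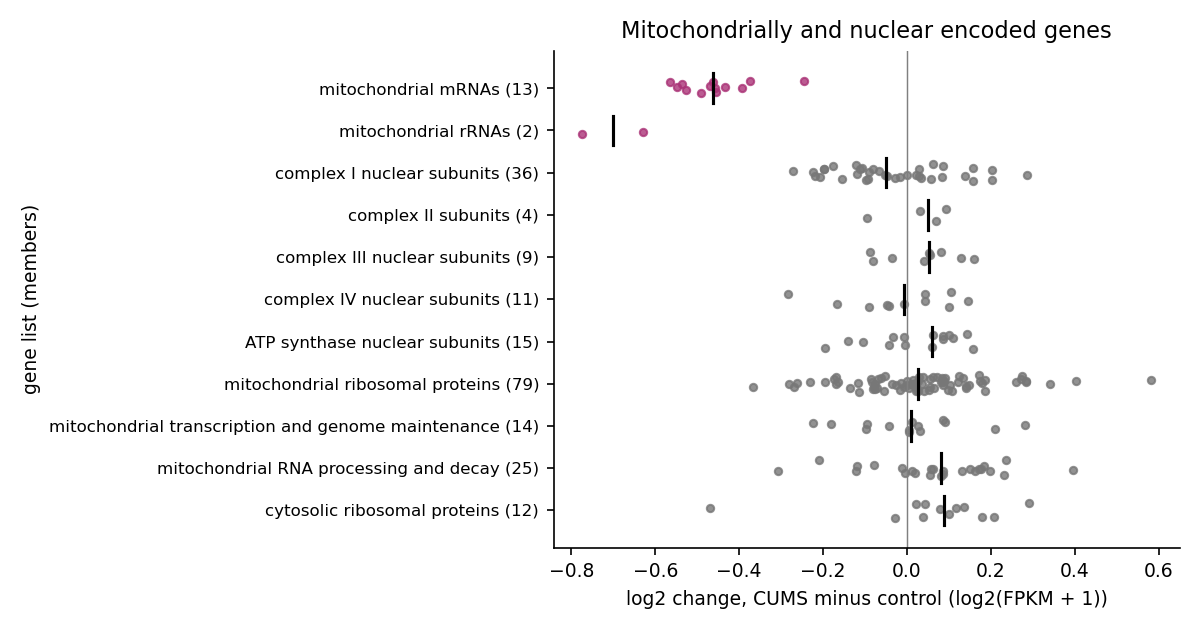
Log2 change from control to CUMS for each tested gene of the mitochondrial mRNAs and rRNAs and of nuclear lists, 1 point per gene; black ticks are list medians and the number of genes is in brackets. Mitochondrial mRNAs centre on −0.46, and medians of the nuclear lists lie between −0.05 and 0.09.

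Nuclear genes that read, cut and translate mitochondrial RNA also gave no call with group as the only term. Of 14 genes of mitochondrial transcription and genome maintenance none passed (median 0.01). Tfb2m, which opens the promoter for the polymerase, had a mean of 4.48 ± 0.420 FPKM in control and 5.33 ± 0.356 FPKM in CUMS libraries (adjusted p = 0.410). Mterf4, which acts in ribosome assembly, was at 6.19 ± 0.461 and 5.15 ± 0.376 FPKM (adjusted p = 0.362). Of 25 genes of RNA processing and decay none passed (median 0.08, 18 values above 0 and 7 below), nor with the block. Elac2, which cuts the 3′ ends of tRNAs, was at 5.55 ± 0.628 and 6.72 ± 0.815 FPKM (adjusted p = 0.423), and Tfb1m, which methylates the 12S rRNA, at 4.55 ± 1.034 and 6.26 ± 0.806 FPKM (adjusted p = 0.297). Grsf1, a protein of mitochondrial RNA granules, was at 13.4 ± 0.928 and 15.5 ± 0.554 FPKM (adjusted p = 0.364). Trmu, of the same list, was lower, at 4.31 ± 0.393 and 3.32 ± 0.665 FPKM (adjusted p = 0.345). In the code 2 libraries alone 1 of the 25 rose, Tfb1m (adjusted p = 0.0416), where 8.82% of all genes rose. In that fit 1 fell, Trmu (0.0372), where 8.84% of all genes fell.

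Of 79 mitochondrial ribosomal proteins, which assemble with mt-Rnr1 and mt-Rnr2, none passed with group as the only term (median 0.03). With the block 2 rose (3.49% of all genes did), among them Mrpl32, whose mean was 14.3 ± 1.22 FPKM in control and 19.3 ± 1.88 in CUMS marrow (adjusted p = 0.144 without it and a log2 change of 0.40, with the block 0.0287). With the header code as a term 3 rose (6.06% of all genes) and 3 fell (7.31%). Mrpl4 was at 21.99 ± 1.26 and 16.9 ± 2.36 FPKM (adjusted p = 0.192), and it fell with the header code as a term (0.0437). Among biogenesis regulators 5 of 7 were tested and none passed, with a median of 0.05, 3 values above 0 and 2 below. Ppargc1a and Ppargc1b, coactivators of mitochondrial genes, were under 1 FPKM in every library. Esrra, a nuclear receptor that drives respiratory genes, had means of 17.8 ± 2.57 and 12.4 ± 2.101 FPKM (adjusted p = 0.180 at a log2 change of −0.49), and fell with the replicate block (0.0137). Among 10 tested mitophagy genes none passed, with a median of −0.13, 8 values below 0 and 2 above. Atg7, which acts in autophagosome formation, had means of 18.3 ± 1.11 and 15.5 ± 1.02 FPKM without overlap (adjusted p = 0.323). Sqstm1, an autophagy receptor, had means of 80.2 ± 11.4 and 69.5 ± 8.28 FPKM (adjusted p = 0.525), and it fell with the header code as a term (0.0494). Bnip3, a mitophagy receptor, had means of 6.36 ± 1.18 and 5.18 ± 0.511 FPKM (adjusted p = 0.476). Bnip3l, the receptor by which maturing red cells clear mitochondria, had a mean of 92.4 ± 7.77 FPKM in control and 102 ± 2.74 FPKM in CUMS libraries (adjusted p = 0.536). In the code 2 libraries alone 1 of the 10 rose, Bnip3l (adjusted p = 0.0450), where 8.82% of all genes rose. In that fit 2 fell, among them Atg7 (0.0490), where 8.84% of all genes fell.

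Markers of several marrow cell types differed between the same libraries, and their part in the mitochondrial values was not tested. All 12 erythroid markers had values towards higher in CUMS (9 of 12 after quantile normalization), with a median log2 change of 0.20, and none passed with group as the only term. With the block 1 rose (3.49% of all genes did), Gata1, an erythroid transcription factor (adjusted p = 0.280 without and 0.0467 with the block). With the header code as a term 2 rose (6.06% of all genes), and in code 2 alone 5 rose (8.82%). Summed, they came to 164642 to 195598 FPKM in the control and 191507 to 233922 FPKM in the CUMS libraries. Of 11 neutrophil markers none passed, at sums of 48931 to 68228 and 51641 to 54812 FPKM. Of 6 monocyte markers 3 fell (0.455% of all genes did), Fcgr1, Cx3cr1 and Csf1r, and 5 with the block (4.31% of all genes). The log2 change was below 0 for 5 of the 6 and above 0 for 1. The list sums were 795 to 1027 FPKM in the control and 788 to 881 FPKM in the CUMS libraries. Of 6 eosinophil, basophil and mast cell markers 3 rose (0.618% of all genes did), Epx, Ear6 and Prg2, at 581 to 808 and 1302 to 1342 FPKM. None of 8 B and plasma cell, 6 T and NK cell, 5 megakaryocyte or 6 adipocyte and stroma markers passed. With the block 3 B and plasma cell markers fell (4.31% of all genes) and 1 rose, and 2 of adipocyte and stroma rose (3.49% of all genes). Skeletal muscle, which is rich in mitochondria, had a marker sum of 4.97 to 6.91 FPKM in the control and 5.87 to 7.04 FPKM in the CUMS libraries, and Ckm, Myh4 and Mb were under 1 FPKM in every library. No marker was at 0 in every library.

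Because haemoglobin RNA took a larger share in CUMS, the members were also measured with each library scaled to the same summed FPKM without haemoglobin and mitochondrial genes. The median log2 change of the 13 mRNAs was then −0.44, and that of the summed level −0.45.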

How the data were processed

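Each library has a deposited table of FPKM values made by the authors. Neither labels nor headers state the unit, so it was inferred: values are not whole, and the value times the length of the longest GENCODE transcript in kilobases sums to 959134 to 1020437 per library over 34632 matched symbols. The submitters' processing notes list mm10 as build and, as tools, HISAT2 2.1 and featureCounts 1.6.4, besides cutadapt 1.16.5, bcl2fastq 2.19 and DESeq2 2.11.40.6. Which tool gave the values, whether strand was used and how fragments with several matches were counted is not given in the sources used here. Low values gave no whole multiples, counts could not be recovered, and precision rests on the 3 libraries of a group.

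The tests were planned for a normalized unit as limma-trend on log2(FPKM + 1), on the 12302 genes that reach 1 FPKM in 3 or more of the 6 libraries, with group as the only term and Benjamini-Hochberg adjustment over all of them (R 4.3.3, limma 3.58.1, Python 3.11.15). The same code was first tested on simulated data. With 3 against 3 libraries an exact permutation test cannot go below 0.1. The members and gene lists were chosen with earlier results of these data known, so sums over members carry no p. Named genes are all members, tRNA genes with at least 1 FPKM in 3 libraries, and up to 4 genes with the smallest p in each nuclear list, of which the text gives a selection; the header code comparison was chosen after values were seen. Coordinates are GRCm38 from RefSeq (GRCm38.p6) and GENCODE M21, which gave the same positions for all 37 mitochondrial genes, and sequences are GENCODE's. Copies were searched among GENCODE transcripts with blastn at 90% identity or more over at least 60 bases.

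Same-numbered libraries deviated together from their group means, with correlations over 12302 genes of 0.689, 0.452 and 0.363, and by 0.459 and 0.362 for replicates 2 and 3 crossed. As all same-number values were above 0.1, the replicate number was used as a block, with values given where the call of a named gene or the count of a list changed. This pairing comes from the data, not the labels, and for replicate 1 it cannot be told apart from the header code. Replicates 2 and 3 correlated about as much crossed as by number, so the data do not show that they pair by number.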

Additional observations from a re-analysis of the deposited data

How the results depend on the processing

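Each of the 15 members kept its direction under all 15 alternatives. The number of mRNAs called lower was 0 with group as the only term, with pseudocounts of 0.1 and 10, with no filter on low values and without any 1 library. It was 1 (COX3) after scaling to the same summed FPKM, with or without haemoglobin and mitochondrial genes, and with quantile normalization. With the replicate block it was 10, with the header code as a term 12, and in the code 2 libraries alone 11. The median log2 change of the mRNAs was −0.38 with quantile normalization, −0.50 after scaling to the same sum, and −0.55 to −0.35 when 1 library was left out. The summed mRNA level with the replicate block differed by −0.47 on the log2 scale, and by −0.52 to −0.38 when 1 library was left out.

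Genes called among all tested numbered 132, and 36 with no filter, 199 with quantile normalization, 959 with the replicate block, 1645 with the header code as a term, 2173 in code 2 alone, and 17 to 262 when 1 library was left out. It was 17 when either control replicate 3 or CUMS replicate 3 was left out, 33 for control replicate 2, 72 for CUMS replicate 1, 19 for CUMS replicate 2 and 262 for control replicate 1. With no filter, mt-Rnr2 did not pass (adjusted p = 0.115). Of the nuclear subunits 8 were called in code 2 alone and none otherwise. The ratio of ND6 to the other mRNAs turned to −0.11 without control replicate 1, in a range of −0.11 to 0.25. The causes were not tested.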
